A study of Mus musculus with 6 samples.

Results

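A set of 8 genes that mark microglia by what they place on the cell surface or secrete was followed through the single-cell RNA sequencing of glioma-bearing mouse brain. They were Tmem119, Selplg, Siglech, Olfml3, Fcrls, Sparc, Ecscr and Slc2a5, taken by their symbols, and all 8 of 8 were found among the 31053 genes of the matrix. The measured cells were CD45+ immune cells sorted from the tumor-bearing right hemisphere of female SCID mice, which lack functional T and B lymphocytes, after a Percoll gradient. Each mouse had received an intracranial implant of U87, an established human glioma line, at 8 weeks of age (the age label reads 6 to 8 weeks). In 3 mice the U87 cells expressed IL-33, a cytokine of the IL-1 family, and the mice were sacrificed 3 weeks later, whereas in 3 mice they carried the empty vector pcDNA and the mice were sacrificed after 6 weeks. Time after implantation and IL-33 therefore cannot be told apart, and every group shared the implant, the strain and the sex. Reads were aligned to the mouse genome, so that transcripts of the human glioma cells were not measured.

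Microglia are the resident macrophages of the brain parenchyma and are kept apart from blood-derived macrophages in expression studies by a set of genes that TGF-beta signaling in the brain helps to sustain. Several of these genes are known to be expressed less when microglia take up an activated, Apoe-rich program, and a panel of them is often used as a sign of the homeostatic state. The 8 genes have different products. Tmem119 encodes a transmembrane protein used as a microglial antibody marker, Selplg the P-selectin ligand PSGL-1, Siglech a sialic acid-binding lectin that is also a marker of plasmacytoid dendritic cells, and Fcrls a protein of the Fc receptor-like family. Ecscr encodes a surface regulator best known from endothelial cells, and Slc2a5 the fructose transporter GLUT5. Olfml3 and Sparc encode secreted proteins of the extracellular matrix, the first with an olfactomedin domain and the second known as osteonectin, which binds collagen.

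The genes lie on 6 chromosomes of GRCm38 (mm10), and all 8 are annotated as protein-coding. Tmem119 (ENSMUSG00000054675, chr5:113793729-113800516) and Selplg (ENSMUSG00000048163, chr5:113818536-113832644) are neighbors on the minus strand, 18019 bases apart. Olfml3 (ENSMUSG00000027848, chr3:103722222-103738001) and Fcrls (ENSMUSG00000015852, chr3:87250758-87263738) share a chromosome, and Siglech (ENSMUSG00000051504) is at chr7:55768178-55778925, Sparc (ENSMUSG00000018593) at chr11:55394500-55423183 and Slc2a5 (ENSMUSG00000028976) at chr4:150119283-150144169. The remaining gene, Ecscr (ENSMUSG00000073599), overlaps 1700066B19Rik on the opposite strand, so that its reads can be told apart only by strand.

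Promoter sequences from RefSeq (build GRCm38.p6) were matched for 5 of the 8 genes, Siglech, Olfml3, Fcrls, Sparc and Slc2a5. The 250 bases before the transcription start were searched on both strands for GGAAGT, a core bound by PU.1 and other ETS factors, for CAGAC, a core bound by SMAD factors, and for TGCTGAC, a core bound by MAF factors. No motif contains another, and matches are a description of letters only. GGAAGT was in 2 of the 5 (Fcrls and Siglech) and in 19.7% of 32851 promoters of the same length. CAGAC was in 4 of the 5, all but Olfml3, and in 42.2% of all, and TGCTGAC was in 1 of the 5, Sparc, and in 3.81% of all. The Sparc window precedes the RefSeq start but lies inside the gene's annotated span, and its sequence is not shown. Other annotated transcripts of Sparc start further upstream. The windows of Siglech, Fcrls and Slc2a5 also reach into the annotated spans of their genes. That of Fcrls does so for most of its length (chr3:87263525-87263774, span end 87263738), with its matches in that part. The sequences below are of Siglech, a gene lower in Apoe-high microglia with matches to 2 motifs, and of Olfml3, a gene not called lower there and with no match. The other promoters did not follow this contrast. Fcrls and Sparc, not called lower, each matched 2 motifs, and Slc2a5, called lower, matched CAGAC only. Matched motifs are in capitals and each sequence is on the strand of its gene.
Siglech, chr7:55767934-55768183, plus strand: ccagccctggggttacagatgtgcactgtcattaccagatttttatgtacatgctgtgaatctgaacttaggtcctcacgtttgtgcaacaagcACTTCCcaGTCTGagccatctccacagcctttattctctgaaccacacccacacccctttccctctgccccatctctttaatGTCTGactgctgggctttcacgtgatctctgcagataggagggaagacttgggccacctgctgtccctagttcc
Olfml3, chr3:103738002-103738251, minus strand: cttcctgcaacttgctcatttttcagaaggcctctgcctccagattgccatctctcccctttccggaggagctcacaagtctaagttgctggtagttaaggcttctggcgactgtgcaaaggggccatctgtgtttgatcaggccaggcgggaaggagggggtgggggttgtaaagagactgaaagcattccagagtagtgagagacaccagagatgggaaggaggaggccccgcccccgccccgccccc

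The deposited matrix held unique molecular identifiers (UMIs), each counting 1 captured transcript from its 3′ end, for 40411 barcodes. Barcodes ended in a suffix from 1 to 6, and the sample labels name no suffix. Suffixes were therefore not assigned to mice, IL-33 and pcDNA mice were not set against each other, and the matrix was treated as 1 pooled sample. The spread over suffixes is given as a range with no p-value, and it can hold differences between IL-33 and pcDNA mice. Per suffix there were 9745192 to 24393841 UMIs and a median of 1536 to 3503 UMIs per barcode. After the filters of the study, more than 200 but no more than 2500 genes and under 5% mitochondrial UMIs, 38751 barcodes passed. Levels are counts per 1000000 UMIs (CPM) summed over a group of cells, with exact Poisson 95% intervals in parentheses. Ratios of levels are followed by their 95% intervals in the same way. All intervals cover counting error only, not differences between mice.

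Suffixes shared barcode sequences to an extent that touches every result. Of the 40411 barcodes, 14722 carried a barcode sequence that also occurred under another suffix (3890 sequences, 490 of them under all 6 suffixes). Over the 15 pairs of suffixes, 509 to 3428 sequences were shared, and the Apoe share of the same sequence under both suffixes correlated at r = 0.923 to 0.982 (a description over barcodes, not over mice). These barcodes held fewer UMIs, with medians of 698 to 1125 per suffix against 2729 to 3741 for the others. In microglia-gated cells Apoe took 2.98 to 3.98% of their UMIs, against 0.497 to 1.65%. They made up 13439 (37.7%) of the microglia-gated cells, 91.9% of those with 500 to under 1000 UMIs but 7.50% of those with 2000 to under 4000. Where these barcodes are included, the 6 suffixes cannot be read as independent units, and agreement between them is a description only. What made the suffixes share sequences was not tested, and the low-RNA, Apoe and state comparisons are given for all barcodes and for barcodes under 1 suffix only.

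Microglia-gated cells were defined without any of the 8 genes. They had at least 1% of UMIs on C1qa, C1qb and C1qc and at least 1 UMI of P2ry12, Gpr34, Cx3cr1 or P2ry13. None passed the gate of another cell type, at least 0.5% of UMIs and 2 genes of a marker list. The microglia gate held 35624 cells, 91.9% of those that passed the filters. Markers of other cell types were not absent from them. The summed dendritic list (Cd209a, Flt3, Ccr7, Xcr1 and Fscn1) was highest, at 359 CPM and from 293 to 440 CPM over suffixes. Single genes of this list were not read, and the source of this RNA was not tested. Genes kept out of the gate were higher in these cells than in monocyte-gated cells. Csf1r stood at 3528 CPM, Trem2 at 2091 and Sall1, a transcription factor of microglia, at 74.6, against 482, 119.5 and 1.46 CPM in monocyte-gated cells. This does not separate microglia from other macrophages of the brain. The paper assigned some clusters of its cells to bone-marrow-derived macrophages, including a cluster high in Spp1 and Apoe. How many such cells the microglia gate holds was not tested.

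In microglia-gated cells, the secreted Sparc was the most abundant of the 8, at 3179.8 CPM (3168 to 3192), and ran over the 6 suffixes from 2696 to 3459.6 CPM with a median of 3297. Selplg followed at 2799 CPM, from 2358 to 3211 CPM with a median of 2769, and Tmem119 at 2439.5 CPM, from 2102 to 3031 CPM with a median of 2376. The suffix ranges of these 3 genes overlapped. Within every suffix, Tmem119 was the lowest of the 3. Sparc was the highest in all suffixes but suffix 2, where it was at 3057 CPM against 3107 for Selplg. Olfml3 was at 1223 CPM, from 1038 to 1350.0 CPM with a median of 1268. Siglech was at 772 CPM, from 731 to 949 CPM with a median of 738. Fcrls was at 339 CPM, from 300.1 to 427 CPM with a median of 336. From Olfml3 down, no range touched the next one in any of the 6 suffixes. Ecscr was at 199 CPM, from 161 to 230.1 CPM with a median of 199. Slc2a5 was the rarest at 40.0 CPM (38.7 to 41.4), from 34.9 to 53.2 CPM with a median of 39.5. With each cell thinned to 500 UMIs, Selplg was seen in 72.9% of microglia-gated cells, Sparc in 73.1%, Tmem119 in 67.9%, and Slc2a5 in 2.02% (1.88 to 2.17%).

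The barcodes found under several suffixes carried another profile of these genes. Ecscr stood at 70.1 CPM in them, from 56.9 to 149 over suffixes, against 228 CPM in barcodes under 1 suffix, from 201 to 248. The 2 ranges did not overlap. With reference cells of the same suffix and UMI bin, 2 of the 8 genes were lower by at least 1.5-fold in the barcodes under several suffixes, against 8.76% of the 5387 genes with at least 20 CPM. These were Ecscr, at a ratio of 0.340 (0.308 to 0.376), and Fcrls, at 0.666 (0.619 to 0.717). Siglech (0.712) and Sparc (0.754) were lower by less than 1.5-fold, while Selplg (1.00), Olfml3 (0.973), Tmem119 (0.890) and Slc2a5 (0.831) were closer to 1. With the Apoe bin also matched, Ecscr stayed at 0.494 (0.427 to 0.571) and Fcrls at 0.681, whereas Selplg was at 1.37 (1.32 to 1.42) and Slc2a5 at 1.49 (1.11 to 2.00).

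**Figure D1:**
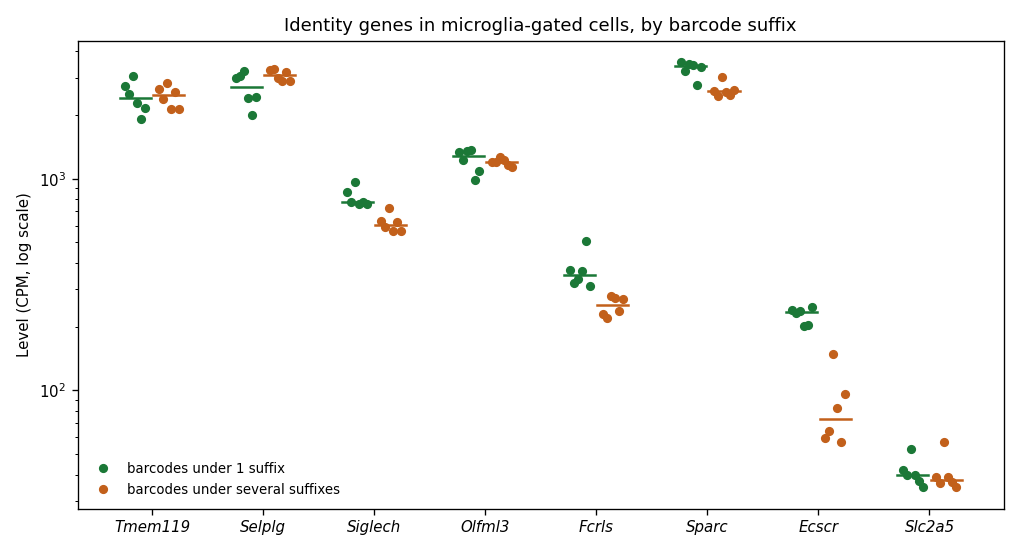
Level of each gene in microglia-gated cells in CPM on a log axis, with 1 point per barcode suffix and a bar at the median of the 6 suffixes, for barcodes under 1 suffix (green) and under several (orange). Ecscr is the gene whose points separate most, from 56.9 to 149 CPM in barcodes under several suffixes against 201 to 248 in the others, and the orange and green points of Tmem119, Selplg, Olfml3, Sparc and Slc2a5 overlap in range.

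The next question was how far the 8 genes were confined to microglia among the sorted cells. Gates on at least 0.5% of UMIs and 2 genes of a marker list found 282 choroid plexus-gated cells, 161 natural killer (NK)-gated, 156 monocyte-gated and 115 granulocyte-gated cells, and under 20 cells or none for the other gates (dendritic cell 3, plasmacytoid dendritic cell 1, T cell 1, none for border macrophage, endothelial cell, astrocyte, oligodendrocyte and B cell). A further 2392 cells (6.17%) passed no gate and 16 passed 2, and neither set was used. No gene of the 8 was at least 5 times higher in microglia-gated cells than in every other gate, and 0.0% of the 5387 genes were. The count of the 8 was also 0 with barcodes under 1 suffix only. The difference was widest against monocyte-gated cells, which are blood-derived. Tmem119 was there at 43.7 CPM (29.5 to 62.4), 1.79% of its microglial level, Sparc at 1.42%, Olfml3 at 2.38% and Ecscr at 0.732%. Selplg at 13.6% and Siglech at 14.2% were the 2 with the highest monocyte levels relative to microglia. Selplg was seen in 16.7% of the thinned monocyte-gated cells (67.9% with all their UMIs), at 374 and 375 CPM in the 2 suffixes with at least 20 of them. Siglech was seen in 3.85% of the thinned monocyte-gated cells, with levels of 17.2 and 159 CPM in those suffixes. Fcrls had 1 UMI in 156 cells, and Slc2a5 had 0 UMIs, which allows up to 4.37 CPM (3 UMIs) and puts it at least 9.16-fold higher in microglia-gated cells.

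NK-, granulocyte- and choroid plexus-gated cells all held transcripts of the 8 genes. In NK-gated cells the 8 genes stood at 17.3 to 55.3% of their microglial level. In granulocyte-gated cells Tmem119 was at 37.7%, and in choroid plexus-gated cells Tmem119 was at 39.3%. No doublet caller was run, and how this RNA came to these cells was not tested. Gated cells with under 0.5% of UMIs on the 3 C1q genes, a subset chosen after these levels were seen, were then used. In these, 7 of the 8 genes, all but Selplg, passed the limit of 5-fold in their observed levels, in which a count of 0 passes, against 3.58% of the 5387 genes. Slc2a5 and Ecscr, among the 7, are not shown to be 5 times higher. In the 112 NK-gated cells so chosen, Tmem119 was at 0.829% of its microglial level with 4 UMIs, Sparc at 1.27% with 8, Siglech at 1.96% with 3, and Fcrls and Slc2a5 had 0 UMIs in 112 cells. The 0 UMIs of Slc2a5 show it only at least 2.64-fold higher in microglia-gated than in NK-gated and 1.11-fold higher than in granulocyte-gated cells. Ecscr in granulocyte-gated cells, at 12.1% of its microglial level, rests on 2 UMIs. Its interval there reaches 86.8 CPM, against 199 CPM in microglia-gated cells. Selplg differed, at 1127 CPM (984 to 1285) or 40.3% in NK-gated cells and 24.9% in 58 granulocyte-gated cells, whereas Tmem119, Siglech, Olfml3, Sparc and Ecscr were at 2.89% or less in the first and 12.1% or less in the second. In 192 choroid plexus-gated cells Selplg was at 1.20%, whereas Sparc was at 6.72% (214 CPM, 172 to 263). PSGL-1 is known on most leukocytes, and Sparc is known outside microglia. Median depth was 1619 UMIs in these NK-gated, 876 in the granulocyte-gated and 1015 in the choroid plexus-gated cells, against 2459 in microglia-gated cells.

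**Figure D2:**
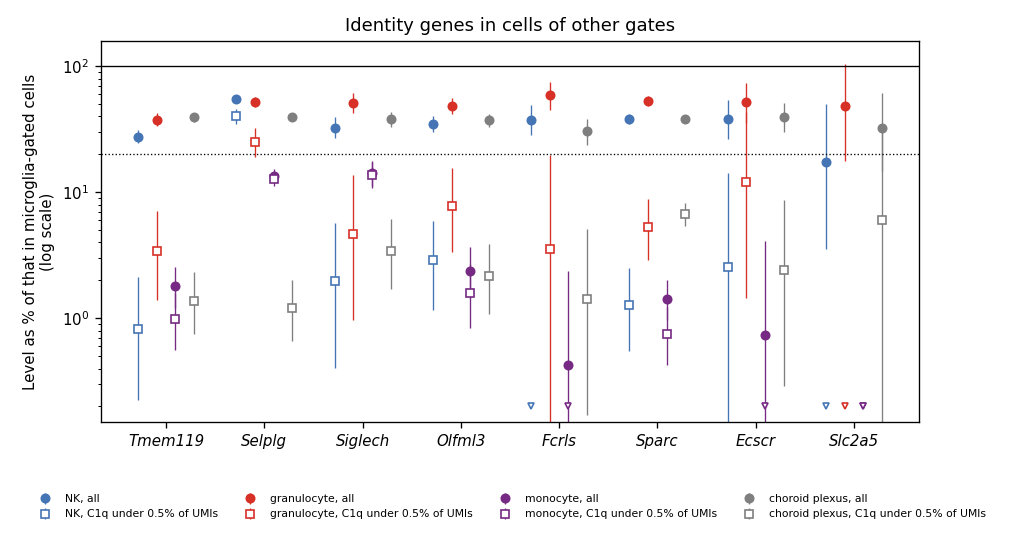
Level in cells of 4 other gates as a percentage of the level in microglia-gated cells, on a log axis, with filled points for all cells of a gate, open points for those with under 0.5% of UMIs on C1q genes, exact Poisson 95% intervals as bars, open triangles at the lower edge for a count of 0 (not drawn at the level that a count of 0 allows), a solid line at 100% and a dotted line at 20%, the limit for a 5-fold difference. Open points with at least 1 UMI fall under the dotted line for every gene but Selplg, which stays at 40.3% in NK-gated and 24.9% in granulocyte-gated cells.

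Low-RNA microglia, those with 500 to under 1000 UMIs, were compared with microglia of 2000 to under 4000 UMIs of the same suffix, to see which identity genes hold their share of the RNA when little of it was captured. Over all barcodes (8106 against 15421 cells), Ecscr and Fcrls were called lower and none higher. A call means a ratio of CPM of at most 1/1.5 or at least 1.5, and this met 7.85% of the 5387 genes downward and 7.85% upward. Ecscr ranged over suffixes from 33.1 to 56.7 CPM with a median of 43.3 in low-RNA cells, against 203 to 260.5 CPM with a median of 226 in the deeper cells. No suffix of the first reached the second, and the ratio was 0.181 (0.159 to 0.205). As 91.9% of these low-RNA cells were barcodes under several suffixes, the values of the 6 suffixes are not independent. Fcrls ranged from 123 to 264 CPM with a median of 227 in low-RNA cells, against 272 to 421 with a median of 318, also without overlap, and the ratio was 0.580 (0.547 to 0.616). Sparc (0.715, 0.703 to 0.728) and Siglech (0.769, 0.744 to 0.795) were lower in 6 of 6 suffixes without passing the limit, and Olfml3 (1.02) and Slc2a5 (0.944) were near 1. Tmem119 (1.12, 1.11 to 1.14, higher in 4 of 6 suffixes) and Selplg (1.31, 1.29 to 1.33, higher in 5 of 6) took a larger share of the RNA in low-RNA cells.

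The calls were lost when the barcodes under several suffixes were left out, which kept 655 low-RNA cells of 8106. None of the 8 genes was then called in either direction, against 7.3% of genes lower and 8.13% higher. Fcrls turned from 0.580 to 1.06 (0.916 to 1.23), Sparc moved to 1.05 (0.998 to 1.10) and Siglech to 1.04 (0.949 to 1.15). Ecscr kept its direction, at 0.675 (0.540 to 0.843) and lower in 5 of 6 suffixes, just outside the limit of a call, with 157 CPM in low-RNA cells from 78 UMIs. Tmem119 at 1.17 (1.11 to 1.23) and Selplg at 1.21 (1.15 to 1.27) kept theirs too, the first higher in 6 of 6 suffixes and the second in 5 of 6. Slc2a5 at 1.39 (0.954 to 2.01) rested on 28 UMIs. Within the barcodes under several suffixes alone (7451 against 1157 cells), Ecscr was at 0.226 (0.188 to 0.272) and Fcrls at 0.666 (0.605 to 0.732). Low-RNA cells were also Apoe-rich, with 49.2% of them at 2% Apoe or more against 11.8% of the deeper cells (25.0 against 7.94% under 1 suffix). Within cells under 0.5% Apoe, Ecscr at 0.273 (0.216 to 0.344) and Fcrls at 0.445 (0.382 to 0.519) were called lower over all barcodes, against 7.46% of genes, and under 1 suffix no gene was called lower, against 14.3%, with Ecscr at 0.887 (0.681 to 1.15), Fcrls at 0.865, Siglech at 1.18 and Tmem119 at 1.22. Within cells at 2% Apoe or more, low-RNA cells had more Tmem119 (1.54, 1.49 to 1.59), Selplg (1.92, 1.86 to 1.98) and Slc2a5 (2.01, 1.48 to 2.73) and less Ecscr (0.292, 0.231 to 0.369) over all barcodes, all 4 called, against 7.13% of genes higher and 7.04% lower. Under 1 suffix (164 against 1132 cells) Selplg at 1.83 (1.61 to 2.08) and Fcrls at 1.54 (1.15 to 2.06) were called higher and Ecscr at 0.365 (0.151 to 0.884) lower, the last on 5 UMIs, against 17.2% and 19.6% of genes, and Tmem119 at 1.27 was not called. The shares of 1 of 8 and 2 of 8 under 1 suffix are near that background. The summed level of 3 of the 12 marker lists of other cell types was at least 1.5-fold higher in low-RNA cells over all barcodes, that of astrocytes the most abundant at 265 against 121 CPM, and 5 were lower. Under 1 suffix 5 lists were higher (NK, monocyte, border macrophage, choroid plexus and T cell) and 2 lower (granulocyte and endothelial), and astrocytes were at 167 against 117 CPM. Most of these calls under 1 suffix rest on very few UMIs, as 3 UMIs make 6.03 CPM in the 655 low-RNA cells. There NK and granulocyte lists were at 4.02 CPM, border macrophage at 8.04, T cell at 2.01 and endothelial at 0. The part of these markers in the result was not tested.

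At the other end, cells with 4000 UMIs or more had more Fcrls and less Selplg and Tmem119 per UMI than those with 2000 to under 4000, none past 1.5-fold. Under 1 suffix, where 4930 cells were compared, Fcrls was at 1.30 (1.27 to 1.33) and higher in 6 of 6 suffixes, Olfml3 at 1.11 (1.10 to 1.13) and higher in 6 of 6, Selplg at 0.802 (0.794 to 0.811) and Tmem119 at 0.850 (0.841 to 0.858), both lower in 6 of 6. Sparc at 1.02 stayed near 1. Over all barcodes (5177 cells) these ratios were 1.31, 1.11, 0.807, 0.854 and 1.02 for Fcrls, Olfml3, Selplg, Tmem119 and Sparc. The 30 companion genes, other microglial genes fixed as a list, were compared between low-RNA cells and cells of 2000 to under 4000 UMIs. In that comparison they gave more calls with the barcodes under several suffixes than without. Over all barcodes 7 of 30 were called lower, led by the integrin gene Itgam (0.373), Sall1 (0.504) and Siglece (0.508), and 3 higher, Crybb1 (1.84), Serpine2 (1.67) and Itgb5 (1.62), with a median ratio of 0.916 against 1.08 over all 5387 genes and 0.856 over the 8. Under 1 suffix 2 were lower, Rgs10 (0.599) and Siglece (0.655), and 1 higher, the TGF-beta receptor gene Tgfbr1 (1.63).

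Apoe-high microglia, with 2% or more of their UMIs on Apoe, the lipid carrier gene that marks activated microglia, were compared with those under 0.5% of the same suffix and UMI bin. The 8 genes divided. Slc2a5, Ecscr, Selplg, Siglech and Tmem119 were called lower, and Sparc, Fcrls and Olfml3 were not, in all barcodes (10625 against 14660 cells) and under 1 suffix (2657 against 12944) alike. Genes called lower were 4.9% of the 5387 over all barcodes and 4.2% under 1 suffix, and those called higher 3.25% and 3.29%, none of them among the 8. Under 1 suffix, Selplg ranged over the 6 suffixes from 988 to 1536 CPM with a median of 1254 in Apoe-high cells, against 2527 to 3399 CPM with a median of 3147 in Apoe-low cells. The 2 ranges lay apart, and the matched ratio was 0.428 (0.420 to 0.437). Slc2a5 had the lowest ratio, 0.312 (0.261 to 0.371) on 150 UMIs, with 11.6 to 20.1 CPM (median 16.5) against 40.2 to 58.9 (median 46.8). Tmem119 stood at 1088 to 1909 CPM (median 1517) against 2351 to 3223 (median 2683), at a ratio of 0.584 (0.573 to 0.595). For none of these 3 genes of surface proteins did the suffix ranges of the 2 groups meet.

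Siglech was at 460.0 to 617 CPM (median 512) in Apoe-high and 808 to 989 (median 883) in Apoe-low cells, at a ratio of 0.584 (0.566 to 0.603). Ecscr was at 112 to 172 CPM (median 138) against 228 to 283 (median 241), at 0.579 (0.545 to 0.616), again without overlap. Of the secreted pair, Sparc was at 1962 to 2856 CPM (median 2768) against 3188 to 3698 (median 3549.6), ranges that did not overlap, but its ratio of 0.723 (0.713 to 0.734) stayed inside the limit of a call. Levels of these 3 genes thus lay apart in Apoe-high and Apoe-low cells, with similar ratios for Siglech and Ecscr and a smaller difference for Sparc. Olfml3 changed least, at 853 to 1254 CPM (median 1216) against 1073 to 1389 (median 1292) with overlapping ranges and a ratio of 0.856 (0.836 to 0.876). Fcrls was at 207 to 491 CPM (median 301) against 304 to 472 (median 357), also overlapping, and at 0.781 (0.748 to 0.815). Compared within suffixes, both were lower in 6 of 6, Olfml3 at ratios of 0.710 to 0.949 and Fcrls at 0.535 to 0.932. In all, 6 of the 8 genes had every suffix of the Apoe-high cells below every suffix of the Apoe-low cells, as did 14.2% of the 5387 genes. Median ratios over the 8 and over all 5387 genes were 0.584 and 0.905.

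**Figure D3:**
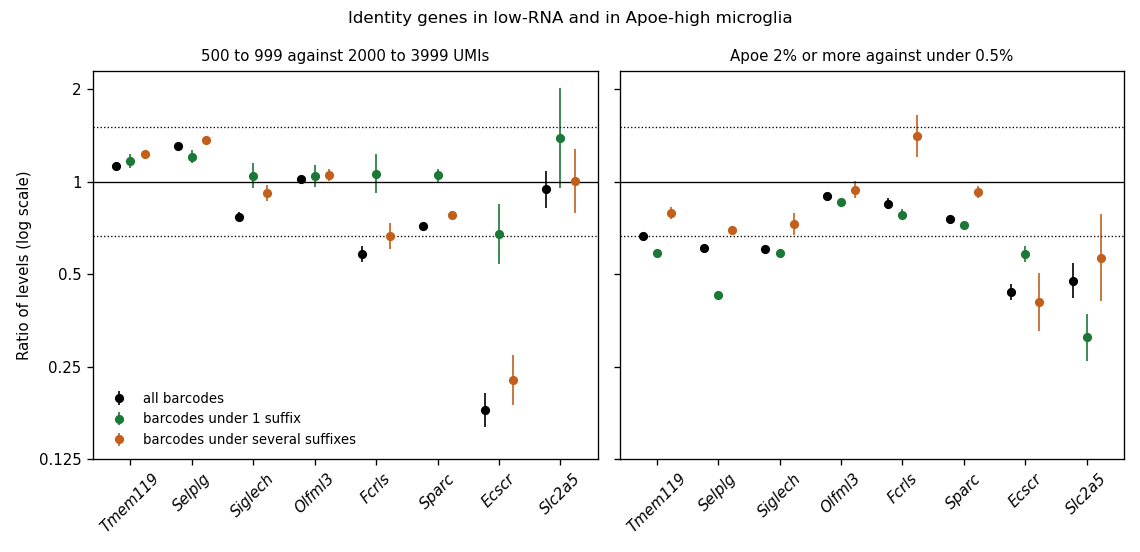
Ratio of levels with its 95% counting interval, on a log axis, for low-RNA against deeper microglia (left) and Apoe-high against Apoe-low microglia (right), in all barcodes (black), barcodes under 1 suffix (green) and barcodes under several (orange). The line is at 1 and the dotted lines are the limits of a call at 1.5-fold. On the left the black points of Ecscr (0.181) and Fcrls (0.580) are below the lower limit and their green points are not, and on the right Tmem119, Selplg, Siglech, Ecscr and Slc2a5 are at or below it in black and in green.

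The size of the difference depended on the set of barcodes. Selplg went from 0.428 under 1 suffix to 0.606 over all and 0.693 (0.669 to 0.718) within the barcodes under several suffixes. Tmem119 was at 0.663 (0.653 to 0.673) over all barcodes, at the edge of a call, and at 0.791 within those under several suffixes. In that set Ecscr (0.406) and Slc2a5 (0.565) were the 2 genes called lower, against 7.7% of genes, and Fcrls was at 1.41 (1.20 to 1.65), without a call. In both sets Olfml3 stayed between 0.856 and 0.941. Under 1 suffix the ratios were also taken within UMI bins. At 4000 UMIs or more (1092 against 1939 cells) Selplg was at 0.450 (0.438 to 0.463), Tmem119 at 0.631, Siglech at 0.576, Ecscr at 0.652 and Slc2a5 at 0.331, the same 5 genes past the limit, against 4.9% of genes, and at 2000 to under 4000 UMIs these 5 passed it as well, against 4.83%. At 500 to under 1000 UMIs (164 against 327 cells) Tmem119 was at 0.550 (0.470 to 0.643), Selplg at 0.574 (0.499 to 0.661) and Siglech at 0.443 (0.326 to 0.601), Sparc passed too at 0.624 (0.544 to 0.717), and Ecscr and Slc2a5 passed on 5 and 2 UMIs, but 29.4% of genes passed in these few cells. Over all barcodes the same 5 genes were called at 2000 UMIs and above, against 5.2% of genes at 2000 to under 4000 and 4.47% at 4000 or more, but fewer below. At 500 to under 1000 UMIs (3989 against 1461 cells) 2 genes were called lower, Ecscr (0.326) and Slc2a5 (0.649), against 8.02% of genes, with Tmem119 at 0.767 (0.734 to 0.802) and Selplg at 0.707 (0.681 to 0.734). At 1000 to under 2000 (3653 against 1669 cells) 3 were, Ecscr, Slc2a5 and Siglech (0.596), against 14.4%, and Selplg at 0.742 and Tmem119 were not. Under 1 suffix (269 against 1448 cells) the 5 were called there, against 20.6%. The 1.5-fold limit was passed in the highest Apoe bin and in neither bin between. At 0.5 to 1% Apoe the 8 ratios under 1 suffix lay between 0.915 and 1.06, at 1 to 2% between 0.785 (Slc2a5 and Selplg) and 0.945 (Olfml3), and at 2% or more between 0.312 and 0.856.

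**Figure D4:**
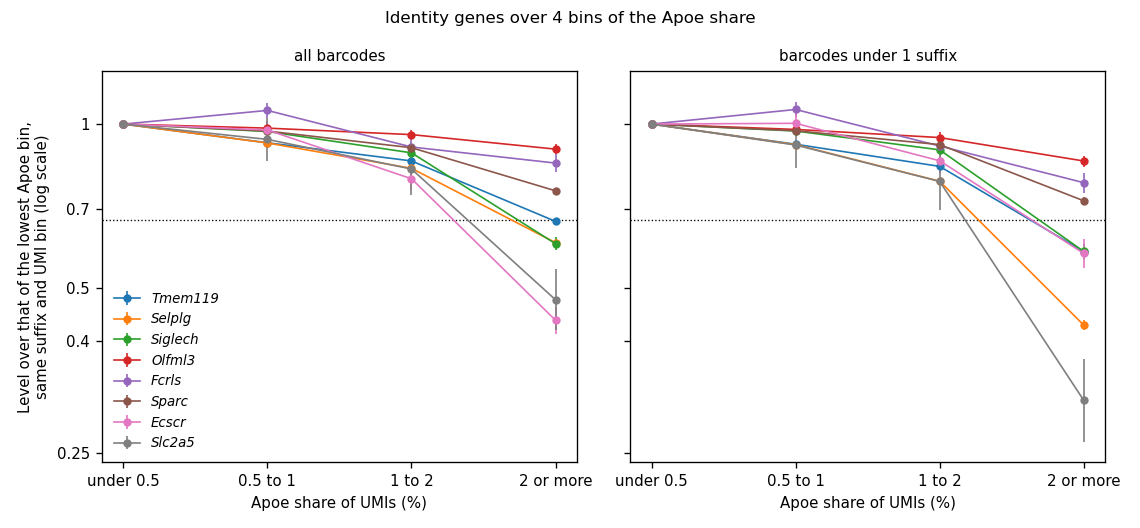
Level of each gene over that in microglia with under 0.5% Apoe of the same suffix and UMI bin, on a log axis, in 4 bins of the Apoe share, for all barcodes (left) and barcodes under 1 suffix (right), with 95% counting intervals and a dotted line at 1/1.5. In the highest bin on the right the lines end between 0.312 for Slc2a5 and 0.856 for Olfml3.

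Counted per cell at 500 UMIs, an Apoe-low cell under 1 suffix showed 3.37 of the 8 genes on average and an Apoe-high cell 2.39. None of the 8 was seen in 0.610% of Apoe-low cells (0.483 to 0.760%) and in 6.02% of Apoe-high cells (5.15 to 6.99%), by exact binomial intervals. Selplg was seen in 76.9% and 42.2% of them and Olfml3 in 45.4% and 39.0%, so that most Apoe-high cells still carried some of the panel. Of the 30 companion genes, 6 were called lower over all barcodes and 1 higher, and 10 lower and none higher under 1 suffix. The ratios furthest from 1 were those of Hpgd (0.349 over all and 0.327 under 1 suffix), which degrades prostaglandins, of Cmtm6 (0.493 over all) and Sall1 (0.592), and under 1 suffix of Entpd1 (0.530), the ectonucleotidase CD39, and Crybb1 (0.565). Serpine2 was the gene called higher, at 1.60 over all and 1.37 under 1 suffix. Of the genes used to check the microglial label, Csf1r (0.841) and Trem2 (1.04) were not called under 1 suffix. Sall1 was called lower over all barcodes (0.592). The sets of barcodes differ, so these genes are not set against each other. Markers of other cell types moved with the Apoe share. Under 1 suffix, 4 of 12 lists were at least 1.5-fold higher in Apoe-high cells (border macrophage at 22.5 against 1.92 CPM with Lyve1 at 0, NK at 13.3 against 3.67, monocyte at 22.2 against 12.2, plasmacytoid dendritic at 99.3 against 25.6 with Ly6d at 0), and the dendritic list was lower at 232 against 426. Their part in the result was not tested.

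Activated states were then gated on genes outside the panel, and each was compared with microglia of no state gate, of the same suffix and UMI bin. A cell could pass several state gates, so the 7 states are not separate sets of cells. Of 56 pairs of gene and state, 21 were called lower over all barcodes and 24 under 1 suffix. Per state, 1.23 to 16.8% of the 5387 genes were called lower over all barcodes and 1.21 to 19.1% under 1 suffix. The lipid and Spp1 states gave the most calls. By its ratio over all cells of a state, Olfml3 was called in none of the 7 states in either set. In the lipid state, gated on Lpl, Fam20c, Fabp5, Mmp12 and Plk2 (396 cells, 67.4% of them barcodes under several suffixes), 6 of 8 genes were called lower, against 15.3% of the 5387. Slc2a5 was at 0.116 (0.0434 to 0.309) on 4 UMIs, Tmem119 at 0.308 (0.285 to 0.333), Selplg at 0.349 (0.326 to 0.373), Ecscr at 0.402, Siglech at 0.484 and Fcrls at 0.666. Sparc (0.677) and Olfml3 (0.769) were not called. Under 1 suffix (129 cells) 6 were again lower, against 19.1% of genes, with Tmem119 at 0.315 (0.283 to 0.350) and Selplg at 0.293 (0.265 to 0.325).

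Spp1-gated microglia (1427 cells, 70.1% barcodes under several suffixes), with at least 0.2% of UMIs on Spp1, the osteopontin gene, had 5 of 8 genes lower, against 7.18% of genes. These were Ecscr (0.290), Slc2a5 (0.360, 0.271 to 0.479), Tmem119 (0.472), Selplg (0.489) and Siglech (0.487). Under 1 suffix (427 cells) the 5 were joined by Sparc at 0.665 (0.643 to 0.687), against 7.76% of genes, and Fcrls stayed at 0.968 (0.894 to 1.05). Of Spp1-gated cells 90.8% were Apoe-high and of lipid-gated cells 71.2%, so these states and the Apoe bins share cells. MHC class II-gated cells (445, of which 1 suffix gave 250) had 4 of 8 lower, against 5.48% of genes. Slc2a5 was at 0.435 (0.301 to 0.629), Ecscr at 0.550, Fcrls at 0.594 (0.533 to 0.661) and Siglech at 0.631. Fcrls ranged over 5 suffixes from 0.464 to 1.18 and was below 1 in 3 of them, with a median of 0.668, inside the limit of a call. The genes not called were below 1 in 5 of 5 suffixes. Their medians over suffixes passed the limit, at 0.559 for Olfml3 (0.764 over all cells), 0.450 for Sparc (0.682), 0.536 for Selplg (0.668) and 0.594 for Tmem119 (0.736). Among barcodes under 1 suffix, 3 suffixes had enough cells, and these medians were 0.698, 0.674, 0.694 and 0.730, inside the limit. Under 1 suffix the count was 4, against 6.09% of genes.

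In the chemokine state, gated on Ccl2 and Ccl12 (2245 cells, 5.39% of them barcodes under several suffixes), Slc2a5 at 0.572 (0.496 to 0.660) and Selplg at 0.616 (0.605 to 0.627) were lower, both in 6 of 6 suffixes, against 1.23% of genes. Under 1 suffix they were the 2 called genes as well (0.560 and 0.619), against 1.21%. Tmem119 at 0.769 and Siglech at 0.759 were lower in 6 of 6 suffixes without a call, and Fcrls (0.965) and Olfml3 (0.981) stayed near 1. Interferon-gated cells (330) had 1 of 8 lower, Ecscr at 0.553 (0.456 to 0.671), against 11.7% of genes, a share near that of the background. Under 1 suffix (194 cells) there were 3, against 13.1%, with Tmem119 at 0.640 (0.602 to 0.679) and Selplg at 0.661 (0.625 to 0.699) beside Ecscr at 0.555. Cells in replication (215) had 1 of 8 lower, Slc2a5 at 0.360 (0.204 to 0.635), against 9.36% of genes (9.62% under 1 suffix, with 1 of 8), and cells in mitosis (113) had 2, Slc2a5 at 0.577 (0.310 to 1.07) and Ecscr at 0.634 (0.488 to 0.825), against 16.8% (16.7% under 1 suffix, with 2 of 8). These counts do not stand out from the background. Fcrls was above 1 in both, at 1.40 (1.27 to 1.54) and 1.29 (1.13 to 1.49), and Olfml3 was at 1.22 and 1.05, none of them called higher.

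**Figure D5:**
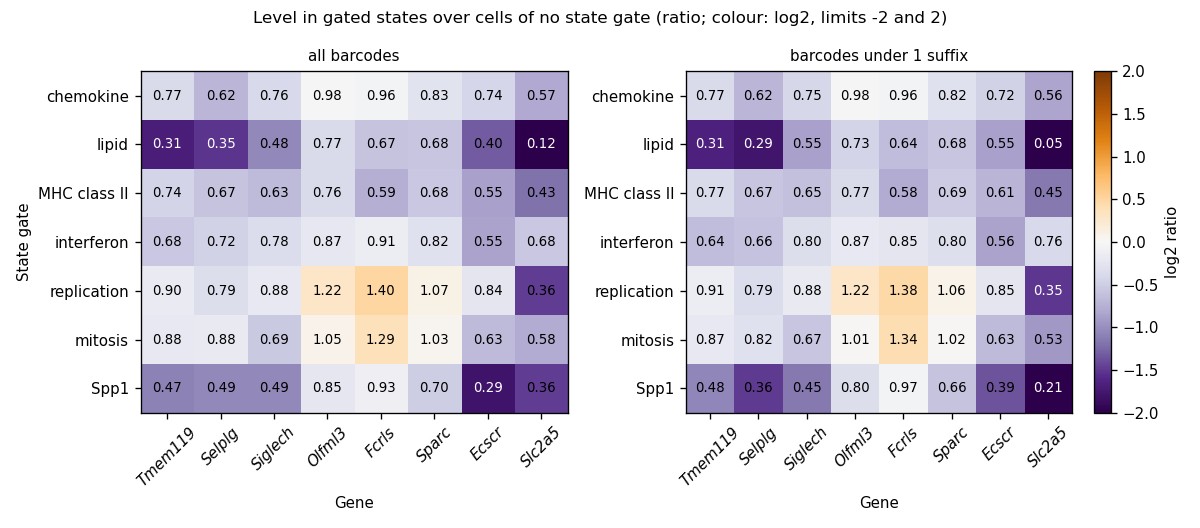
Ratio of the level of each gene in 7 gated states to that in microglia of no state gate, of the same suffix and UMI bin, printed in each cell and colored by its log2 value from -2 (purple) to 2 (orange), for all barcodes (left) and barcodes under 1 suffix (right). Tmem119 and Selplg are lowest in the lipid and Spp1 rows, Slc2a5 in the lipid row rests on 4 UMIs on the left and 1 on the right, and Olfml3 stays between 0.764 and 1.22 on the left.

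The genes whose levels followed each of the 8 most closely were sought over the 16 groups of UMI bin and Apoe bin of microglia-gated cells. Pearson's r of log2(CPM + 10) was ranked over 2670 genes of at least 50 CPM. The 16 points share libraries and differ in depth, so these r values are a description only. Tmem119 was followed by Ivns1abp (r = 0.979), Cd164 (r = 0.975) and Arhgap5 (r = 0.965). For Selplg they were Cd164 (r = 0.982), Mtdh (r = 0.975) and Arhgap5 (r = 0.970). For Siglech they were Sox4 (r = 0.963), Papss1 (r = 0.960) and Mat2a (r = 0.948). Tmem119 and Selplg, the neighbors on chromosome 5, shared Cd164 and Arhgap5 among their 3, and their own r was 0.98 (0.97 under 1 suffix). For Fcrls they were Cfl1 (r = 0.952), Gnai2 (r = 0.938) and Tmsb4x (r = 0.935). Ecscr was closest to Arsb (r = 0.993), Ckb (r = 0.982) and Slc15a3 (r = 0.978). Slc2a5 was closest to Twf2 (r = 0.871), Serinc3 (r = 0.869) and Pmepa1 (r = 0.866). The secreted Sparc went with Tgfb1 (r = 0.954), Arsb (r = 0.953) and St13 (r = 0.948), and shared Arsb, a lysosomal sulfatase gene, with Ecscr. Olfml3 had the loosest company, with Manf (r = 0.842), Tubb5 (r = 0.793) and Vdac1 (r = 0.789). Of these 24 names, 2 were also among the first 3 under 1 suffix, Ivns1abp for Tmem119 and Arhgap5 for Selplg. Over the 28 pairs of the 8 genes, r ran from -0.56 to 0.98 with a median of 0.48 over all barcodes, and from -0.07 to 0.97 with a median of 0.59 under 1 suffix. Fcrls and Selplg gave the lowest value over all barcodes (-0.56), and 0.21 under 1 suffix.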

How the data were processed

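CD45+ cells of 6 U87-bearing SCID mice were profiled by 10x 3′ single-cell RNA sequencing. The authors deposited 1 matrix of raw UMI counts for 40411 barcodes and 31053 genes. Per the labels, Cell Ranger 3.1 (mm10, STAR) and Seurat 3.1.5 were used. Sequencing was done in 3 batches. The sample labels name neither batches nor barcode suffixes, so suffixes were not assigned to mice, IL-33 was not compared with pcDNA, and the matrix was treated as 1 pooled sample.

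Barcodes with 200 genes or fewer, more than 2500 genes, or 5% or more mitochondrial UMIs were dropped; no doublet caller was run. Levels are summed UMIs per 1000000 with exact Poisson intervals, and shares of cells were taken after thinning to 500 UMIs, with exact binomial intervals. Ratios were standardized by suffix, and for Apoe bins and states also by UMI bin, with a call at 1.5-fold read against 5387 genes of at least 20 CPM. With suffixes not assigned to mice, no test was made. Named were the 8 genes, the 3 genes of highest correlation with each, and, of 30 companion genes, those past 1.5-fold with the 3 largest by ratio; Csf1r, Trem2 and Sall1 are named as checks of the cell label. The genes, lists and gates were chosen with earlier results of these data known. The split by shared barcodes, the gates with C1q under 0.5% and the border macrophage gate at 0.1% were added after seeing the data. Ratios were tested on simulated data. Python 3.11.15, numpy 2.4.6, scipy 1.17.1, pandas 2.3.3 and matplotlib 3.10.9 were used.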

Additional observations from a re-analysis of the deposited data

How the results depend on the processing

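No paired analysis was possible for IL-33 against pcDNA mice from the sample labels alone, because these labels name no barcode suffix. Comparisons of cells within a suffix did not need these labels. The number of the 8 genes at least 5-fold higher in microglia-gated cells than in every gate was 0 (0.0% of the 5387 genes). It was 1 with cells thinned to 500 UMIs, 1 in barcodes under several suffixes and 7 in cells with C1q under 0.5% (3.58% of genes). Among these 7, Slc2a5 on counts of 0 and Ecscr on 2 UMIs in granulocyte-gated cells are not shown to be 5-fold higher. The number called lower in low-RNA microglia was 2, against 7.85% of the 5387 genes. It was 1 at a 2-fold limit and 0 in barcodes under 1 suffix (7.3% of genes), where Fcrls turned to 1.06. The number called lower in Apoe-high microglia was 5, against 4.9% of genes. It was 3 with thinned cells, 2 with Apoe-high from 1%, 2 at a 2-fold limit and 2 in barcodes under several suffixes (7.7% of genes). Of the 56 pairs of gene and state, 21 were lower, against 1.23 to 16.8% of the 5387 genes per state, and 12 at a 2-fold limit. For thinned cells, the 2-fold limit and Apoe-high from 1%, no share over all genes was taken. Nor was it taken for the 5-fold count in barcodes under several suffixes. Whether those counts stand out from all genes was therefore not shown. Leaving out 1 suffix at a time gave 0 to 0, 2 to 2, 4 to 5 and 19 to 25. The other 68 alternative values of these 4 counts stayed within 1.5 times the value reported. Over single genes, 575 alternative values moved by less than their interval, 203 by more and 1 reversed; the cause was not tested. Counting intervals do not cover differences between mice, and Slc2a5, at 40.0 CPM, is the gene that depth limits most.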
